A study of Mus musculus with 14 samples.

Results

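Bariatric operations reroute food or bile through the gut, and the liver receives the altered flow of nutrients and bile acids from both. The comparison described here set the livers of mice that had either of 2 such operations against the livers of mice that had none, and asked which genes stood higher or lower after both. It used all 14 livers of the series, 9 operated and 5 unoperated, chosen by their labels alone, and every gene of the deposited read count table. The operated livers were the 4 GB-IL livers (gallbladder-ileum anastomosis, in which the gallbladder is joined to the ileum and the common bile duct is closed, so that bile enters the gut near its far end) and the 5 RYGB livers (Roux-en-Y gastric bypass, in which a small stomach pouch is joined to the small intestine below the duodenum). The 2 operations were given equal weight although their numbers of livers differed. The 5 control livers came from DIO mice (diet-induced obesity) without surgery. All 3 groups were C57BL/6 males made obese on a high-fat diet begun in youth and continued after surgery, and all livers were taken 8 weeks after the operation or the matching time. The controls had no sham operation and were neither pair-fed nor weight-matched, so that rerouting, surgery itself, food intake and body weight cannot be told apart.

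Sugar that reaches the liver is broken down through glycolysis, and fructose enters by its own short route, which includes ketohexokinase and triokinase. The products feed the citric acid cycle or are built into fatty acids and triglyceride, a route that runs high in obese, fat-laden liver. Cholesterol is made in the liver by a chain of enzymes whose genes are switched together by the sterol-regulated factor SREBP-2, and part of it leaves as bile acids, which the ileum returns to the liver. Resident macrophages (Kupffer cells), stellate cells and bile duct cells share the tissue with the hepatocytes, and hepatocytes secrete acute phase proteins when they receive inflammatory signals.

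Library totals ran from 18223135 to 28656631 counts, and 14252 of the 25212 listed genes were tested. Levels are given as CPM (read counts scaled to a common library size, with TMM factors), which are not divided by gene length, so that levels are compared between livers and not between genes. The GB-IL livers differed most among themselves: the biological coefficient of variation, the replicate spread of a gene's level, was 0.543 in GB-IL, 0.244 in DIO and 0.295 in RYGB. The leading principal component accounted for 48.5% of the variance, and on it GB-IL 1 scored 134, GB-IL 2 106 and GB-IL 3 20.1, whereas GB-IL 4 at -35.3 lay within the DIO range of -45.7 to -21.9. RYGB 5 lay at 17.4 and the other RYGB livers between -33.8 and -2.14. Marker sums, here and below, are CPM of the library total without TMM factors, which ran from 0.9217 in GB-IL 2 to 1.129 in RYGB 5. Summed markers of skeletal muscle reached 1810 CPM and those of pancreas 1320 CPM in GB-IL 1, against at most 3.35 and 2.44 CPM in any other liver. Results are therefore also given without GB-IL 4 and without GB-IL 1 and 2. Hepatocyte markers summed to between 89200 and 166000 CPM in every liver, as the label liver implies.

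No gene passed the test for a difference between operated and DIO livers. The quasi-likelihood test of edgeR, with p-values adjusted after Benjamini and Hochberg, called 0 of 14252 genes at a false discovery rate of 0.05 (0.00%), and the smallest adjusted p was 0.160. At an unadjusted p under 0.05 there were 2164 genes (15.2%), of which 1494 were higher (10.5%) and 670 lower (4.70%) in the operated livers. These percentages are the background against which the counts below are read. DESeq2 called 407 genes (2.86%), 335 higher and 72 lower, and limma voom with sample quality weights called 840 (5.89%), 534 higher and 306 lower, with 266 genes called by both tools. The outcome changed with the tool and also with 1 liver. Without GB-IL 4 edgeR called 1056 of 14492 genes (7.29%), 672 higher and 384 lower, and 370 of the 407 genes called by DESeq2 were among them. GB-IL 4 lay within the DIO range on the leading principal component, so the count without it does not replace that of all livers. Without GB-IL 1 and 2 the count was 0, with 1749 genes at an unadjusted p under 0.05.

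A stricter question was whether a gene differed from DIO in the same direction after each operation. Taking for each gene the larger p of the 2 contrasts, edgeR called 0 genes (smallest adjusted p 0.970), while 458 genes (3.21%) had an unadjusted p under 0.05 in both, 318 higher (2.23%) and 140 lower (0.982%). DESeq2 called 7 genes on this rule, among them Kcnt2, Fabp5, Gm6166, Gldn, Fmn2 and 2610305D13Rik, and voom called 0 with 910 genes at unadjusted p under 0.05 in both. Without GB-IL 4 edgeR called 5, namely Kcnt2, Hao2, Me1, Asns and Gm11773. Both contrasts use the same 5 DIO livers, so their values are given side by side below and are not independent of each other. Taken alone, GB-IL against DIO had 449 genes higher and 16 lower at an adjusted p under 0.05, and RYGB against DIO had 0, with 1241 at an unadjusted p under 0.05. That 1 contrast passed and the other did not is no test of a difference between the operations. Tested directly, GB-IL and RYGB differed in 0 genes (smallest adjusted p 0.0552), with 3147 (22.1%) at an unadjusted p under 0.05. DESeq2 called 845 and voom 115 in that contrast, and edgeR without GB-IL 4 called 3120.

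What the operations had in common was described by the genes whose 9 operated livers all lay on 1 side of all 5 DIO livers. There were 92 such genes (0.646%), 53 with every operated liver above every DIO liver (0.372%) and 39 with every operated liver below (0.274%). Of the 92, 60 had an unadjusted p under 0.05 in both contrasts, 56 were called by DESeq2 and 62 by voom. The 92 were picked from these same livers by that lack of overlap, so these counts are no separate support. The median log2 difference of the 53 was 1.27 for GB-IL and 1.07 for RYGB, and that of the 39 was -1.12 and -0.724. The difference was larger after GB-IL for 39 of the 53 and 35 of the 39, and 19 of the 92 had an unadjusted p under 0.05 between GB-IL and RYGB. Under another library scaling the 92 became 97 (50 above, 47 below, by relative log expression) or 96 (64 above, 32 below, by upper quartile). Leaving out GB-IL 1 and 2 gave 79 above and 55 below. The count also grew where a single liver was left out, to 247 without GB-IL 4, 264 without DIO 1 and 223 without DIO 2, with fewer livers left to overlap.

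**Figure D1:**
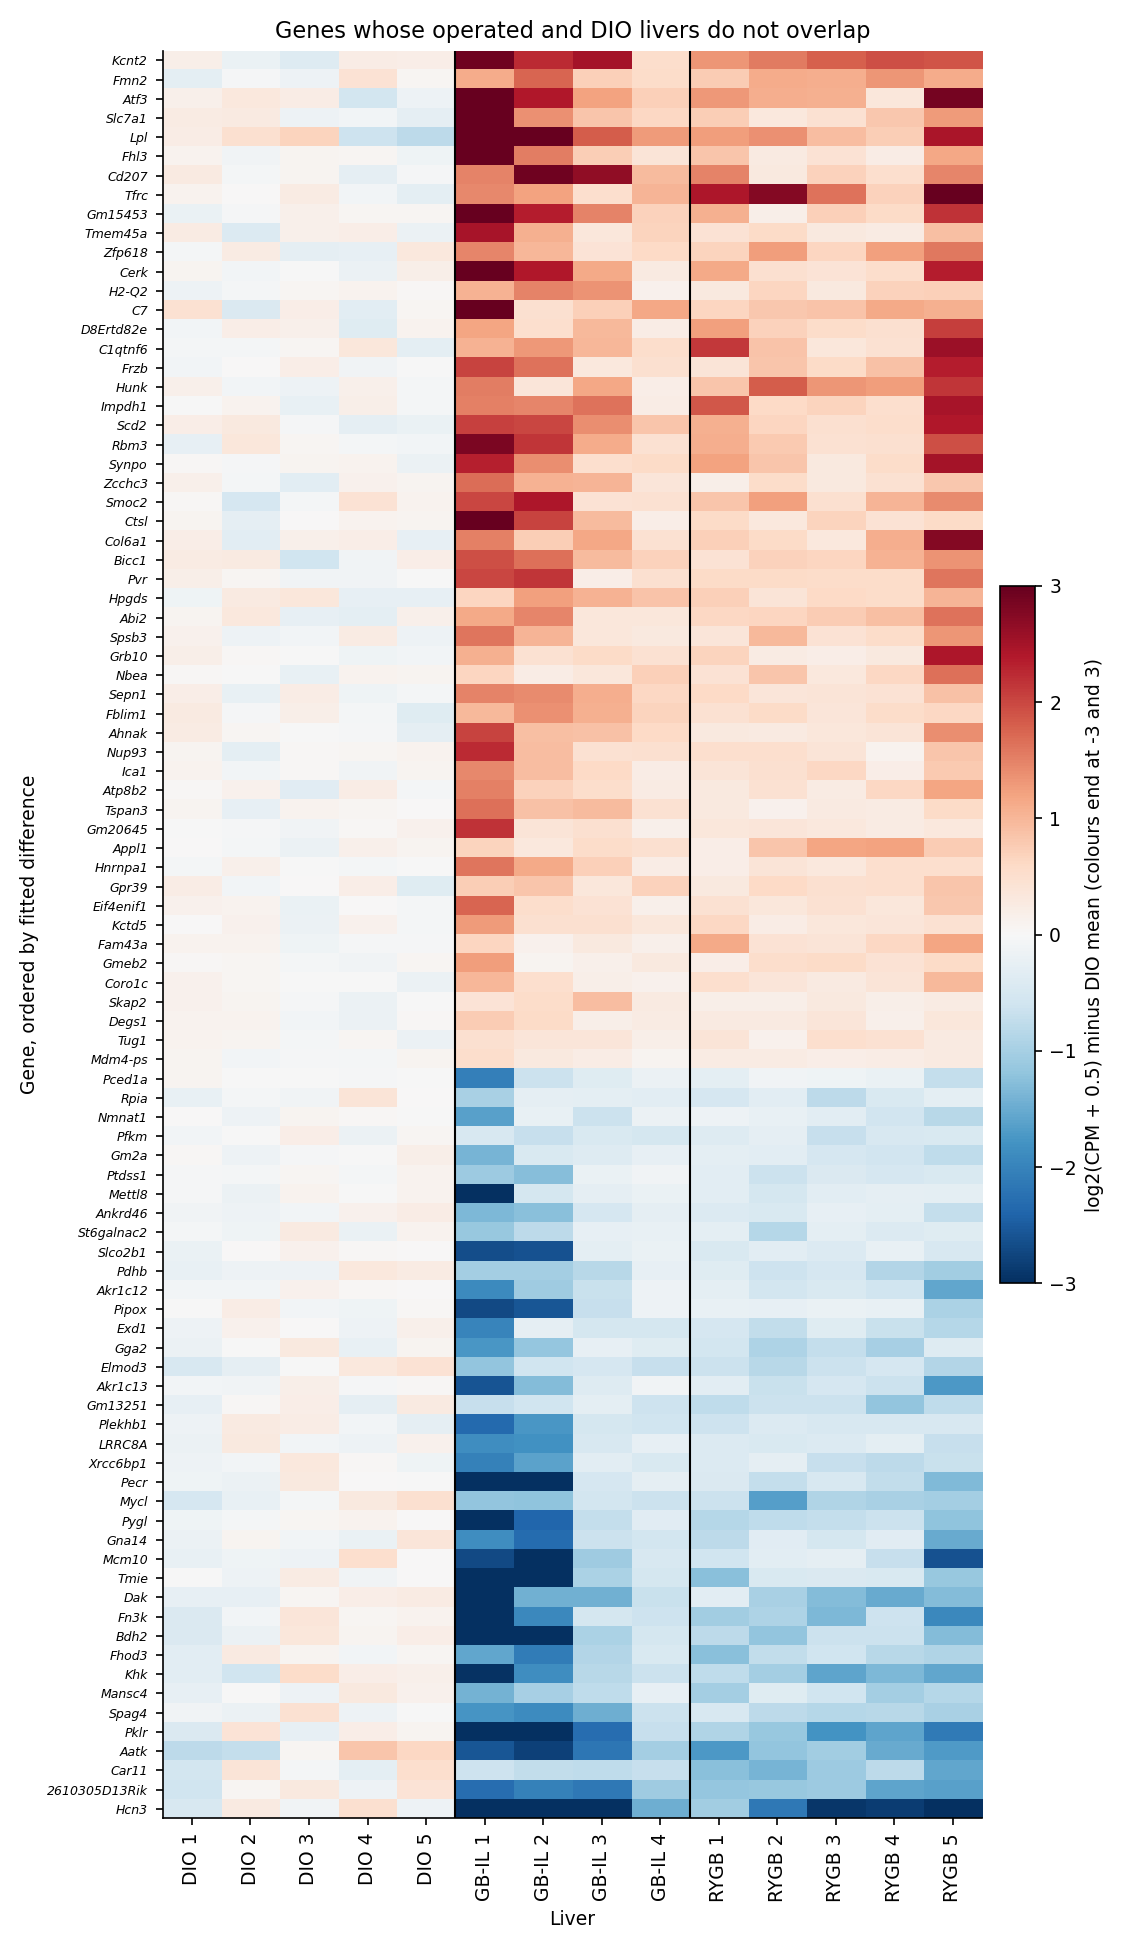
Each row is 1 of the 92 genes whose operated and DIO livers do not overlap and each column 1 liver, coloured by log2(CPM + 0.5) minus the mean of the 5 DIO livers, with colours ending at -3 and 3. Colours are deepest in GB-IL 1 and 2 and in RYGB 5, and GB-IL 4 has pale colours on the operated side of 0.

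Genes of sugar breakdown stood among those lower in every operated liver. Khk encodes ketohexokinase, which phosphorylates fructose in the first step of its use. Its level was 502, 412, 913, 716 and 687 CPM in the 5 DIO livers, 79.7, 169.8, 350.3 and 398 in the 4 GB-IL livers and 365, 305, 209, 243 and 210.5 in the 5 RYGB livers. The highest operated liver, GB-IL 4, lay just under the lowest DIO liver, and the log2 difference was -1.37 ± 0.40 (SE) for GB-IL and -1.28 ± 0.37 for RYGB, -1.33 ± 0.31 for both together. Dak encodes triokinase, which phosphorylates the glyceraldehyde released from fructose. It stood at 547, 540.2, 672, 734 and 762 CPM in DIO, 73.3, 238, 236 and 403 in GB-IL and 514, 329, 262, 225 and 262 in RYGB livers, a log2 difference of -1.24 ± 0.30. Here RYGB 1 came nearest to the DIO range and GB-IL 1 lay farthest from it. Pfkm, the muscle-type subunit of phosphofructokinase that commits sugar to glycolysis, was measured at 19.7, 20.7, 24.2, 18.5 and 21.6 CPM in DIO livers. After GB-IL it was 14.9, 12.7, 15.1 and 14.3 and after RYGB 15.9, 17.2, 12.6, 14.7 and 15.1 CPM, so that a small difference (-0.51 ± 0.11) exceeded a narrow spread. Skeletal muscle markers were high in GB-IL 1, where Pfkm was below every DIO liver. The part of muscle RNA in its Pfkm level was not tested. Pdhb, a subunit of pyruvate dehydrogenase, which passes pyruvate into the mitochondrial cycle, stood at 111, 117, 117, 162 and 154 CPM in DIO, 64.2, 64.3, 73.2 and 109.6 in GB-IL and 102, 84.6, 92.5, 70.7 and 63.2 in RYGB livers. GB-IL 4 lay just below the lowest DIO liver, and the log2 difference was -0.72 ± 0.17. Pklr, the pyruvate kinase of liver and red cells, was lower in every operated liver too, at 233, 413, 264, 358 and 334 CPM in DIO, 3.68, 6.44, 64.3 and 194 in GB-IL and 168, 143, 90.7, 104 and 72 in RYGB. Its log2 difference was -1.86 ± 0.62, and its levels were spread widest within GB-IL. Pygl, the liver enzyme that releases glucose units from glycogen, was at 537, 570.2, 617, 634 and 600.5 CPM in DIO, 60.8, 114, 363 and 469.5 in GB-IL and 326, 350.5, 363, 376 and 258 in RYGB livers, a log2 difference of -1.03 ± 0.35 (-0.67 without GB-IL 1 and 2). Its DIO livers lay close together, and GB-IL 1 and 2 were the lowest. Pklr and Pygl were singled out after their values had been seen. For RYGB alone their log2 differences were -1.47 ± 0.74 and -0.82 ± 0.40, with unadjusted p of 0.064 and 0.060 in edgeR's quasi-likelihood test. Neither was called by DESeq2 for operated against DIO livers (adjusted p 0.053 and 0.076).

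The whole route was then laid out, as 30 genes of glucose and fructose uptake and breakdown down to pyruvate dehydrogenase, a list also drawn up after values were seen and described without a test. Of the 29 genes tested, 7 were lower at an unadjusted p under 0.05 (among them Khk, Dak, Pfkm, Pklr, Pdhb and Pdhx) and 6 were higher (Hk1, Hk2, Pfkp, Aldoa, Aldoc and Pkm), beside 4.70% and 10.5% of all genes. The median log2 difference over the list was -0.20 together, -0.02 for GB-IL and -0.19 for RYGB. The lower genes include the pyruvate kinase typical of hepatocytes, and the higher genes include its counterpart from other tissues. Pkm, the pyruvate kinase of most other tissues, was 22.8, 21.6, 32.3, 23.5 and 21.5 CPM in DIO, 116, 106, 106 and 30.8 in GB-IL and 75.3, 36.8, 23, 23.6 and 199.7 in RYGB livers, a log2 difference of 1.72 ± 0.50. GB-IL 4, RYGB 3 and RYGB 4 stood within or next to the DIO range and RYGB 5 was highest. Aldoc, an aldolase known best from brain, had a log2 difference of 1.24 ± 0.34 and Hk2, a hexokinase of muscle and fat, of 1.54 ± 0.45. Without GB-IL 1 and 2 these differences were 1.51 for Pkm, 1.06 for Aldoc and 1.42 for Hk2. The other 3 higher genes then had an unadjusted p of 0.05 or more, with Aldoa at 0.39 (from 1.03 ± 0.43), Pfkp at 1.37 (from 1.99 ± 0.69) and Hk1 at 0.50 (from 0.60 ± 0.27), and so had Pdhx among the lower genes, at -0.34 (from -0.43 ± 0.17). Summed macrophage markers, given below, were above the DIO range in GB-IL 1, 2 and 3 and RYGB 1 and 5, where Pkm was highest. They were above it too in GB-IL 4 (1430 CPM), whose Pkm lay within the DIO range. In RYGB 5, the highest for Pkm, the sum (1360 CPM) was below that of every GB-IL liver. The part of macrophages in the result was not tested. In bulk tissue a lower level of a gene can come from fewer cells of a type or from less RNA in each, and these cannot be told apart.

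The carbohydrate-sensing factor ChREBP binds paired E-boxes upstream of sugar-responsive genes, and single E-boxes with the letters CACGTG are read by several factor families. The stretches of 250 bases before the RefSeq gene start (build GRCm38.p6) are shown for Pklr and Khk because both lay lower in every operated liver. Capitals mark, for Pklr at chr3:89136373-89136622 (plus strand), the boxes CACGNG and CNCGNG with 5 bases between them and, for Khk at chr5:30921309-30921558 (plus strand), CACGTG.
Pklr: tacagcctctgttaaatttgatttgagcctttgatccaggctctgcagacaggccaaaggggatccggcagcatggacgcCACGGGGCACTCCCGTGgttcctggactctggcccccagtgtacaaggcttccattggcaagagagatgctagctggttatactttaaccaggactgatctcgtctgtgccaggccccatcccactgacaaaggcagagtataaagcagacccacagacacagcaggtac
Khk: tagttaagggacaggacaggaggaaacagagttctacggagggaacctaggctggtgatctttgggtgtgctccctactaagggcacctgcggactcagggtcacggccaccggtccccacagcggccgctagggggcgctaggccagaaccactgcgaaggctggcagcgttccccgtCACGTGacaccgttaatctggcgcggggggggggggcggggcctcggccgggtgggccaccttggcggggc
The paired boxes of Pklr lay 170 to 154 bases before the RefSeq gene start and the E-box of Khk 71 to 66 bases before it. The GENCODE M21 annotation starts these genes earlier, at chr3:89136142 for Pklr and chr5:30921431 for Khk. By those starts both matches lie inside the gene. Searched on both strands in the same 250 bases, the paired boxes were in 88 of 27025 gene symbols with a promoter entry (0.326%) and CACGTG in 1854 (6.86%). The motifs can overlap, since CACGTG may itself be 1 of the paired boxes. Among the 39 genes lower in every operated liver 27 had an entry, of which 4 held CACGTG (Aatk, Pfkm, Khk and Pced1a) and 1 held the pair (Pklr). Among the 53 genes higher in every operated liver 38 had an entry, of which 5 held CACGTG and 0 the pair. The motifs were chosen after the values were seen, and a match describes the letters, not a bound site.

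Among the other genes lower after both operations, Hcn3, which encodes a pacemaker-type ion channel, had the largest difference of those named. It stood at 22.4, 38, 29.1, 44.4 and 28.1 CPM in DIO, 0.63, 0.734, 2.71 and 11.1 in GB-IL and 15.1, 6.76, 3.77, 3.97 and 3.36 in RYGB livers, and the log2 difference was -2.68 ± 0.54. GB-IL 4 and RYGB 1 were the highest operated livers. Hcn3 (chr3:89146074-89160196, minus strand) overlaps the end of Pklr (chr3:89136142-89146784, plus strand) by 711 bases in the annotation, and whether counting used strand is not given in the sources used here, so that reads from these overlapping ends cannot be told apart. Aatk, a kinase gene known from nerve cells, was at 12.9, 13.7, 23.4, 40.6 and 34.9 CPM in DIO, 3.41, 2.82, 4.62 and 10.8 in GB-IL and 6.51, 9.62, 10.8, 7.57 and 6.58 in RYGB livers. The DIO livers themselves were spread widely, and the log2 difference was -1.90 ± 0.33. Mycl, a transcription factor of the Myc family, stood at 10.7, 13, 14.7, 19 and 21.8 CPM in DIO, 6.46, 6.38, 10.3 and 9.59 in GB-IL and 9.62, 4.54, 7.96, 7.65 and 7.37 in RYGB livers, with GB-IL 3 just below the lowest DIO liver and a log2 difference of -1.02 ± 0.21. Elmod3, whose product acts on small Arf-like GTPases, was measured at 21.2, 24.5, 29.3, 37.2 and 40 CPM in DIO, 12.8, 19.3, 20.6 and 18.2 in GB-IL and 18.9, 16.3, 18.7, 20.7 and 15.8 in RYGB livers. Its operated livers lay close together (-0.78 ± 0.20 for GB-IL and -0.75 ± 0.19 for RYGB). 2610305D13Rik, at 1.47, 2.56, 3.1, 2.15 and 3.46 CPM in DIO, was 0.105, 0.226, 0.17 and 0.922 in GB-IL and 0.82, 0.838, 0.88, 0.496 and 0.45 in RYGB livers, a log2 difference of -2.32 ± 0.39. Gm13251 was 4.13, 5.07, 5.8, 4.02 and 6.11 CPM in DIO, 2.89, 3.11, 3.94 and 3.06 in GB-IL and 2.73, 3.01, 2.99, 1.9 and 2.73 in RYGB livers, a log2 difference of -0.77 ± 0.17. Both lie on chromosome 4 and resemble other transcripts there at 90% identity or more: 49.6% of 2610305D13Rik matches Zfp978 and 54.7% of Gm13251 matches Zfp991, so that their counts may hold reads of such relatives and are uncertain.

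Among the 10 genes named as higher in every operated liver, Lpl encodes lipoprotein lipase, which frees fatty acids from circulating triglyceride and is low in healthy adult hepatocytes. It was measured at 18.1, 21.8, 24.8, 9.85 and 8.75 CPM in DIO, 168, 178, 55.2 and 38.1 in GB-IL and 37.5, 40.5, 29.4, 25.9 and 86.2 in RYGB livers. The 2 operations differed in size, at 2.72 ± 0.50 for GB-IL and 1.40 ± 0.46 for RYGB, 2.06 ± 0.44 together and 1.43 without GB-IL 1 and 2. Tfrc, the receptor that brings transferrin-bound iron into cells, was 16, 15, 17.7, 13.9 and 12 CPM in DIO, 41, 34.7, 21.1 and 30.5 in GB-IL and 81.7, 103, 47.1, 24.4 and 263 in RYGB livers. Here RYGB had the larger difference, 2.80 ± 0.48 against 1.09 ± 0.48, with RYGB 5 far above the rest and RYGB 4 among the GB-IL values. Appl1, an adaptor of the adiponectin and insulin receptors, stood at 9.37, 8.91, 8.09, 10.3 and 9.81 CPM in DIO, 15, 11.8, 13.9 and 13.1 in GB-IL and 10.8, 16.8, 21.8, 22.2 and 16 in RYGB livers. The difference was small (0.72 ± 0.17), and RYGB 1 lay next to the highest DIO liver.

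Kcnt2, a sodium-activated potassium channel gene, had the smallest p of all genes. Its level was 0.471, 0.246, 0.153, 0.509 and 0.481 CPM in DIO, 5.99, 3.56, 4.33 and 0.738 in GB-IL and 1.64, 2.02, 2.46, 2.77 and 2.67 in RYGB livers, from 3 to 10 counts in each DIO library. GB-IL 4 was the operated liver nearest to DIO, and the log2 difference was 2.95 ± 0.46, 2.67 without GB-IL 1 and 2. Hunk, a kinase gene, was 1.31, 1.03, 0.967, 1.3 and 1.06 CPM in DIO, 4.2, 1.58, 3.14 and 1.36 in GB-IL and 2.41, 5.28, 3.56, 3.35 and 6.68 in RYGB livers, a log2 difference of 1.54 ± 0.32. The estimate was 1.91 ± 0.35 for RYGB and 1.18 ± 0.37 for GB-IL, and the operations did not differ at an unadjusted p under 0.05. Bicc1, an RNA-binding protein of kidney and duct epithelia, stood at 3.14, 3.15, 1.53, 2.32 and 2.98 CPM in DIO, 11.2, 9.09, 5.43 and 4.39 in GB-IL and 3.61, 4.39, 4.26, 5.83 and 7.27 in RYGB livers, a log2 difference of 1.23 ± 0.28. GB-IL 1 and 2 were highest, and RYGB 1 lay just above the DIO livers.

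The remaining 4 are known from immune, muscle or matrix-attached cells. Cd207 encodes langerin, a lectin of Langerhans-type cells, and was at 1.31, 0.935, 1.07, 0.736 and 0.961 CPM in DIO, 3.68, 10.7, 8.86 and 2.36 in GB-IL and 3.66, 1.33, 1.9, 1.61 and 3.6 in RYGB livers, where RYGB 2 lay hardly above the highest DIO liver. Hpgds, the prostaglandin D synthase of blood cells, was 0.785, 1.18, 1.27, 0.679 and 0.673 CPM in DIO, 1.68, 2.77, 2.38 and 2.03 in GB-IL and 1.8, 1.33, 1.62, 1.53 and 2.32 in RYGB livers. Their log2 differences were 1.97 ± 0.40 and 1.08 ± 0.24. Sepn1, a selenoprotein of the endoplasmic reticulum needed in muscle, was 3.4, 2.41, 3.51, 2.6 and 2.79 CPM in DIO, 9.14, 8.7, 6.79 and 4.72 in GB-IL and 4.7, 3.9, 3.94, 4.1 and 5.75 in RYGB livers. Fblim1, which links filamin to cell adhesions, was 1.99, 1.52, 1.83, 1.47 and 1.11 CPM in DIO, 3.52, 4.8, 3.82 and 2.77 in GB-IL and 2.35, 2.56, 2.15, 2.52 and 2.67 in RYGB livers. The RYGB livers of Fblim1 lay close together just above DIO, and for Sepn1 RYGB 5 stood above the other RYGB livers. The log2 differences were 0.96 ± 0.20 for Sepn1 and 0.93 ± 0.20 for Fblim1. Summed macrophage markers were 692 to 1150 CPM in DIO, 1430 to 3490 CPM in GB-IL and 807 to 1630 CPM in RYGB livers, so that they too were above the DIO range in 6 of 9 operated livers, and their part in these 4 results was not tested.

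Adjusted p-values of these 20 named genes lay between 0.160 and 0.187 in edgeR's quasi-likelihood test. All 20 had an unadjusted p under 0.05 in both contrasts, and all 20 were called by DESeq2 (adjusted p 6.12e-07 to 0.00840), by voom (0.00653 to 0.0429) and by edgeR without GB-IL 4 (0.000464 to 0.0283). The 20 were picked from these same livers for a lack of overlap and a small edgeR p, so these calls are no separate support. Of the 20, 5 had an unadjusted p under 0.05 between GB-IL and RYGB, namely Cd207, Sepn1, Fblim1 and Lpl, higher after GB-IL, and Tfrc, higher after RYGB.

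**Figure D2:**
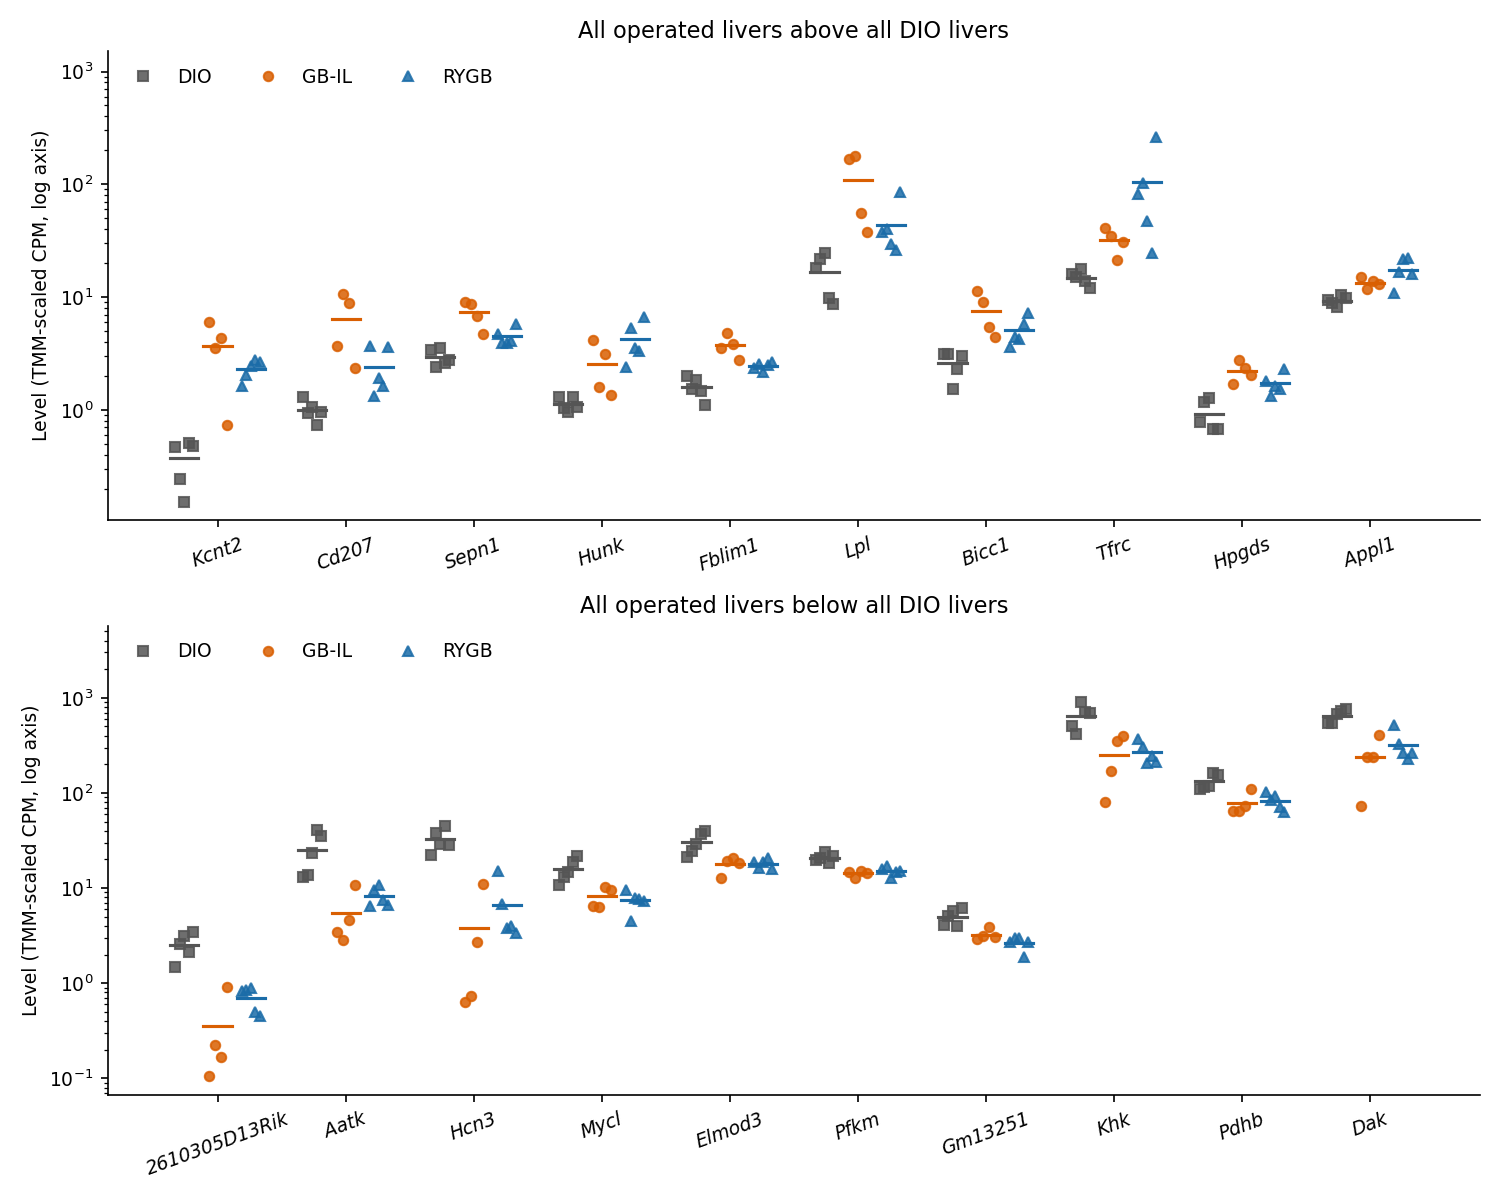
Levels in TMM-scaled CPM (log axis) of the 20 named genes, with 1 point per liver (squares DIO, circles GB-IL, triangles RYGB) and a bar at each group's mean. In the upper panel every operated liver lies above the DIO livers and in the lower panel they lie beneath them. Khk ranges from 412 to 913 CPM in DIO and from 79.7 to 398 CPM in operated livers.

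**Figure D3:**
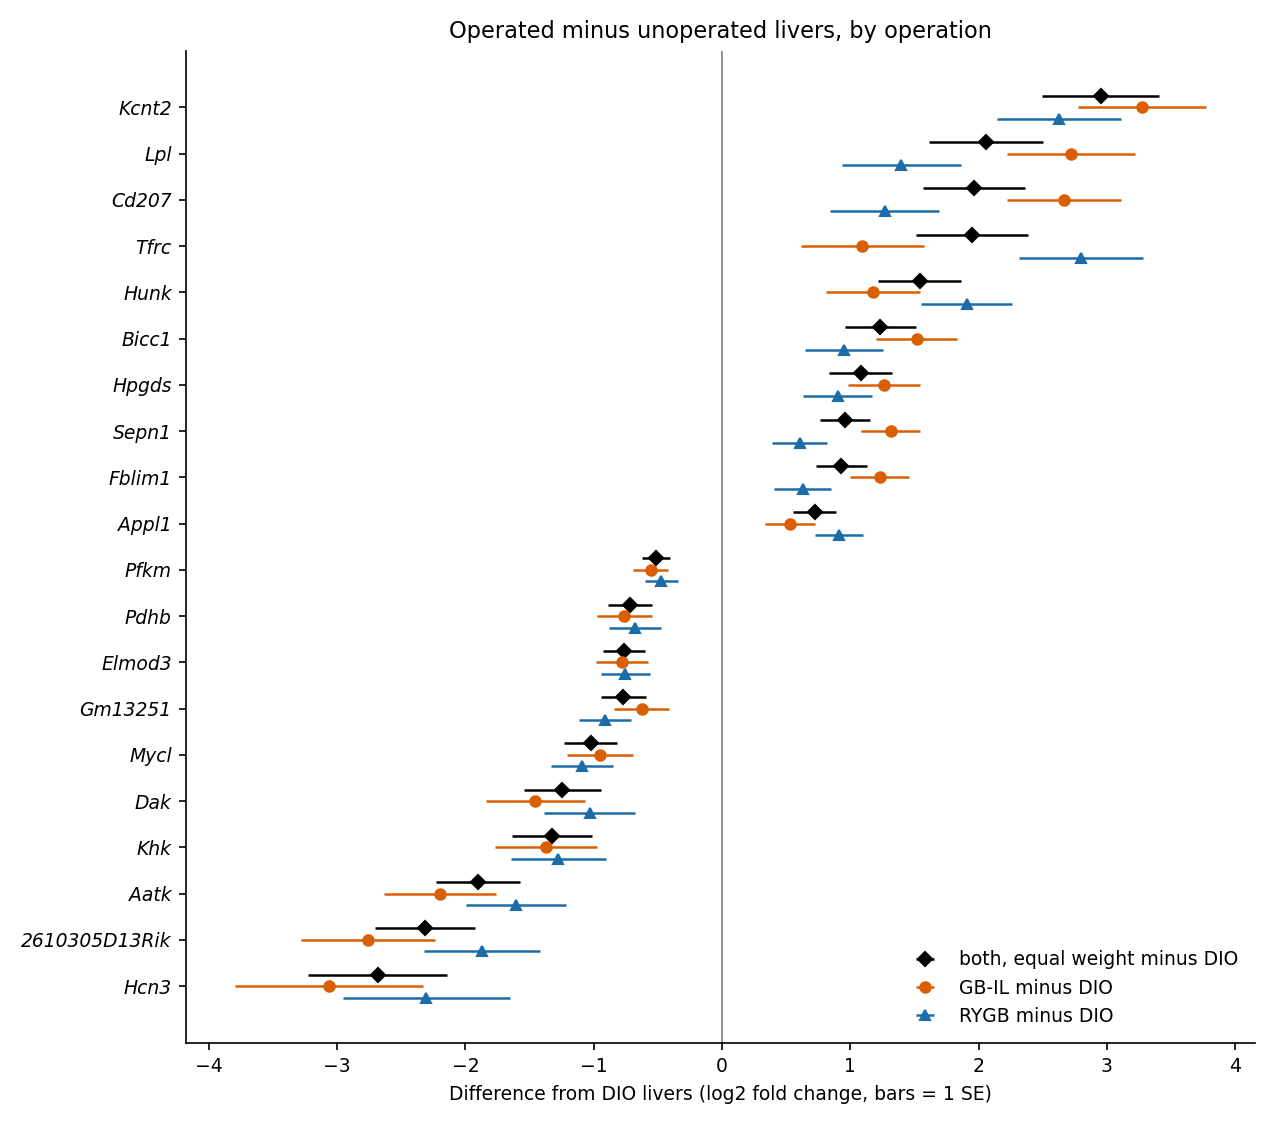
Log2 differences from DIO livers of the same 20 genes for both operations with equal weight (diamonds), GB-IL (circles) and RYGB (triangles), with bars of 1 SE. The operations share the sign for each gene; Lpl is farther from 0 after GB-IL (2.72) and Tfrc after RYGB (2.80), while Elmod3 (-0.78 and -0.75) and Pfkm (-0.56 and -0.47) sit close together.

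Gene lists by role were compared with the background of 10.5% higher and 4.70% lower at an unadjusted p under 0.05 and a median log2 difference of 0.0258 over all genes. These counts are for the 2 operations averaged, which 1 operation alone can carry. For that p in both contrasts, in the same direction, the background was 3.21%. For cholesterol synthesis, 13 of 21 genes tested were higher and 0 lower at that p, the list's median was 1.07 (0.715 for GB-IL and 1.19 for RYGB), and 19 of 21 had an estimate above 0 after both operations. DESeq2 called 4 of the 21 and voom 6, and 5 of the 21 had an unadjusted p under 0.05 in both contrasts. Without GB-IL 1 and 2 the count was 9 higher and 0 lower and the median 0.826, beside a background of 7.62% higher and 4.26% lower. Sqle, the squalene epoxidase, was 86.6, 22.1, 9.87, 24.8 and 18.5 CPM in DIO, 139, 186, 72 and 69.4 in GB-IL and 177, 202, 134, 76.6 and 41.6 in RYGB livers, a log2 difference of 1.91 ± 0.52. Lss, which closes the first sterol ring, was 60.5, 45.3, 24.1, 23.1 and 26.3 CPM in DIO, 123, 128, 37.1 and 52.9 in GB-IL and 101, 209, 98.4, 66.6 and 37.2 in RYGB livers, a log2 difference of 1.38 ± 0.42. For both genes DIO 1 was the highest DIO liver and overlapped the operated range, as did DIO 2 for Lss. By count, 0 of the 21 were free of overlap. Mvd, Mvk and Cyp51 had log2 differences of 1.79 ± 0.75, 1.55 ± 0.48 and 1.35 ± 0.48. Lss was at 0.91, Mvk at 0.99 and Mvd at 1.11 without GB-IL 1 and 2, the last with an unadjusted p of 0.05 or more. Hmgcs1, an early synthase of the pathway, was 572, 141, 93.9, 61 and 65.4 CPM in DIO, 160.3, 421, 97.6 and 482 in GB-IL and 839, 1260, 937, 413 and 152 in RYGB livers. Its log2 difference was 1.95 ± 0.70 for RYGB but 0.64 ± 0.72 for GB-IL, and 1.29 ± 0.63 together.

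The bases before the Hmgcs1 start (chr13:119690101-119690350, plus strand, GRCm38.p6, RefSeq) are shown as the list's example of a sterol regulatory element, with the letters TCACNCCAC in capitals.
Hmgcs1: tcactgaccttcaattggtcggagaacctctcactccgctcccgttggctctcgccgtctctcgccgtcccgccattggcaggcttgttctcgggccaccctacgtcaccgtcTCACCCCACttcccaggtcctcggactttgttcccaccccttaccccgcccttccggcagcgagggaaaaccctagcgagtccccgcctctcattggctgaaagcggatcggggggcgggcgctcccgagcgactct
The match lay 137 to 129 bases before the gene start. On either strand these letters were in 331 of 27025 symbols (1.22%) and in 1 of the 15 listed cholesterol genes with an entry. SREBP-2 also reads other sterol elements, which were not searched.

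Around this pathway, the list of sterol uptake, sensing and efflux had 3 of 20 higher and 0 lower, with a median of 0.271. Srebf2, the gene of SREBP-2 itself, had a log2 difference of 0.73 ± 0.27 (0.33 without GB-IL 1 and 2, with an unadjusted p of 0.05 or more).

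Fatty acid synthesis had 4 of 19 lower and 1 higher, and its median was -0.376. Without GB-IL 1 and 2 it had 2 lower and 1 higher, with a median of -0.22. Thrsp, or Spot 14, a lipogenic protein that follows carbohydrate intake, was 149.9, 245, 593, 705 and 493 CPM in DIO, 26.8, 19.1, 127 and 249 in GB-IL and 118, 123, 38.8, 37.8 and 26.8 in RYGB livers, a log2 difference of -2.36 ± 0.57. Only GB-IL 4 reached into the DIO range. Malic enzyme, Me1, which supplies reducing power for fat synthesis, was 408, 279.6, 225, 198 and 208 CPM in DIO, 38.8, 42.8, 32.1 and 410 in GB-IL and 114, 88.5, 81.8, 89.2 and 59.7 in RYGB livers. Of the 9 operated livers 8 were below all DIO livers and GB-IL 4 was above them (-1.31 ± 0.50 log2, -0.93 without GB-IL 1 and 2, with an unadjusted p of 0.05 or more). The list's 1 higher gene, Scd2, a desaturase less typical of hepatocytes than Scd1, was 5.39, 5.76, 4.53, 3.79 and 3.99 CPM in DIO, 20.6, 20.2, 13 and 8.71 in GB-IL and 10.3, 7.55, 6.65, 6.95 and 26.8 in RYGB livers, without overlap (1.52 ± 0.35 log2). For Scd1 and Fasn the differences were -0.99 ± 0.85 and -0.39 ± 0.36.

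Triglyceride storage and lipid droplets had 7 of 24 lower and 2 higher, with a median of -0.351. Dgat2, the last enzyme of triglyceride synthesis, was 412, 564, 767, 799.9 and 727 CPM in DIO, 172, 271, 483 and 441 in GB-IL and 562, 407, 357, 420.3 and 348 in RYGB livers (-0.79 ± 0.24 log2). The droplet coat gene Plin5 and the phosphatase gene Lpin1 had log2 differences of -0.92 ± 0.32 and -1.39 ± 0.44; both were far higher in DIO 4 and 5 than in the other DIO livers. Fabp4, a fatty acid carrier of adipocytes and macrophages, was higher, at 10.2, 7.53, 12.9, 10 and 11.6 CPM in DIO, 49.9, 37.3, 27.1 and 18.4 in GB-IL and 38.8, 25.5, 12.6, 11.9 and 149.9 in RYGB livers (1.93 ± 0.55 log2). RYGB 3 and 4 lay within the DIO range and RYGB 5 far above the rest. In lipoprotein metabolism 2 of 21 were higher and 2 lower (median -0.121): Lpl and its anchor Gpihbp1 (0.82 ± 0.37) against Apoa2 (-0.56 ± 0.26) and Apoc1 (-0.54 ± 0.23). With GB-IL 1 and 2 left out, Gpihbp1 was at 0.28, Apoa2 at -0.56 and Apoc1 at -0.42, each with an unadjusted p of 0.05 or more.

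Of 31 genes of fatty acid oxidation and ketogenesis, 10 were lower and 2 higher, and the median was -0.477 (-0.771 for GB-IL and -0.343 for RYGB), with 24 estimates below 0 after both operations. Of the 31, 3 had an unadjusted p under 0.05 in both contrasts. Without GB-IL 1 and 2, 6 were lower and 0 higher, with a median of -0.313. Acaa2, the thiolase of the last step of mitochondrial oxidation, was 959, 850, 1334, 1368 and 1231 CPM in DIO, 363, 491, 653 and 845 in GB-IL and 1001, 708, 712, 732 and 616 in RYGB livers (-0.79 ± 0.21 log2). RYGB 1 alone stood inside the DIO range. Cpt2, which readies fatty acids for oxidation inside the mitochondrion, was 176, 149.8, 207, 226 and 225 CPM in DIO, 76.5, 102, 110.5 and 165 in GB-IL and 142, 125, 169.8, 137 and 91.8 in RYGB livers (-0.68 ± 0.19 log2). The 2 higher genes were Pdk4, which switches pyruvate dehydrogenase off (2.07 ± 0.91), and the coactivator Ppargc1a (0.83 ± 0.35). The Pdk4 difference rested on GB-IL 1 at 86.9 and RYGB 5 at 90.6 CPM, against 2.63 to 11.3 CPM in the other operated livers. Pdk4 was at 0.90 and Ppargc1a at 0.35 without GB-IL 1 and 2, both with an unadjusted p of 0.05 or more.

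For bile acid synthesis and transport, the genes nearest to the operations' design, 2 of 23 were higher and 0 lower, with medians of -0.225 together, -0.479 for GB-IL and 0.112 for RYGB. The higher genes were Slco1a4, an uptake transporter of organic anions (1.48 ± 0.48), and Abcc4, which exports bile salts back into blood (0.80 ± 0.29). Abcc4 was 1.23 ± 0.34 for GB-IL and 0.38 ± 0.32 for RYGB, with an unadjusted p under 0.05 between the operations. Without GB-IL 1 and 2 Abcc4 was at 0.37 and Slco1a4 at 0.82, both with an unadjusted p of 0.05 or more. Slco1a4 stood at 41.9, 54.8, 45.6, 22.5 and 29.6 CPM in DIO, 318, 183, 28 and 98.8 in GB-IL and 119, 45, 37, 50.7 and 125 in RYGB livers, highest in GB-IL 1 and 2 and overlapping DIO in GB-IL 3 and RYGB 2 to 4. Its transcript also matches Slco1a5 at 90% identity or more over 34.5% of its length. Cyp7a1, the rate-limiting enzyme of bile acid synthesis, was 56.9, 163, 90.2, 231 and 169 CPM in DIO, 2.84, 15.6, 221 and 123 in GB-IL and 432, 232, 128, 39.5 and 117 in RYGB livers, with an error (-0.11 ± 0.73) far larger than the difference. The bile salt export pump gene Abcb11 had a difference of -0.50 ± 0.57 (-1.06 ± 0.72 for GB-IL and 0.06 ± 0.66 for RYGB) and the uptake carrier gene Slc10a1 of -0.38 ± 0.22.

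Xenobiotic metabolism had 6 of 37 lower and 2 higher (median -0.504), and 4 lower and 3 higher without GB-IL 1 and 2 (median -0.367). The lower genes included the glutathione transferases Gsta3 (-0.94 ± 0.37), Gsta4 (-0.98 ± 0.34) and Gstm1 (-0.63 ± 0.27) and the nuclear receptor gene Nr1i2 (-0.48 ± 0.18). Gsta3 was at -0.66 and Gstm1 at -0.62 without GB-IL 1 and 2, neither with an unadjusted p under 0.05. Cux2, a female-biased repressor in the growth hormone list, was 0.209, 1.03, 0.509, 0.283 and 0.865 CPM in DIO, 25.4, 19.4, 0.212 and 0.443 in GB-IL and 25.1, 0.296, 0.387, 0.331 and 27 in RYGB livers, high in 4 livers, GB-IL 1 and 2 and RYGB 1 and 5, and in no others. Its log2 difference of 4.21 ± 1.43 thus describes a part of each group, and it was 1.67 without GB-IL 1 and 2. In that list 2 of 21 were lower and 1 higher, with medians of -0.604 together, -1.13 for GB-IL and 0.133 for RYGB. Ugt2b38, 1 of its 2 lower genes, matches Ugt2b37 over 99.7% of its transcript, and its level is uncertain.

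Glucose metabolism and insulin signalling had 4 of 23 higher and 4 lower (median -0.268). Igfbp1, a binding protein of insulin-like growth factors that insulin holds down, was 109, 11.6, 20.8, 79.4 and 92.4 CPM in DIO, 10220, 5514, 150 and 56.6 in GB-IL and 113, 50.3, 223, 123 and 438 in RYGB livers. Its log2 difference of 3.79 ± 1.10 was 1.15 without GB-IL 1 and 2, with an unadjusted p of 0.05 or more, and it was 5.99 ± 1.29 for GB-IL and 1.60 ± 1.05 for RYGB. Igfbp2 was 139.7, 207, 164, 335 and 184 CPM in DIO, 791, 409, 244 and 146 in GB-IL and 784, 561, 462, 436 and 521 in RYGB livers (1.18 ± 0.35 log2, 0.66 without GB-IL 1 and 2), above all DIO livers in every RYGB liver and in GB-IL 1 and 2. Pygl, Gys2 (-0.62 ± 0.23), Pdk2 (-0.59 ± 0.23) and the glucagon receptor gene Gcgr (-0.47 ± 0.21) were the 4 lower genes. The list had 1 higher and 4 lower without GB-IL 1 and 2.

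In the unfolded protein and amino acid stress list 4 of 20 were higher and 1 lower (median 0.280). Asns, which makes asparagine when amino acids are short, was 1.47, 1.67, 1.12, 1.07 and 0.433 CPM in DIO, 43.1, 91.1, 18.3 and 0.295 in GB-IL and 6.56, 14.4, 13.2, 4.38 and 9.48 in RYGB livers. Of 9 operated livers 8 exceeded all DIO livers and GB-IL 4 was below them (4.05 ± 0.86 log2, 5.04 ± 0.94 for GB-IL and 3.05 ± 0.87 for RYGB). Atf3, a stress-induced transcription factor, was 0.942, 1.13, 1.02, 0.396 and 0.673 CPM in DIO, 10.6, 6.38, 2.5 and 1.62 in GB-IL and 2.73, 2.27, 2.22, 1.16 and 9 in RYGB livers, without overlap (2.35 ± 0.57 log2). The chaperone gene Hspa5 of the same list had a difference of 0.48 ± 0.38.

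The acute phase list had 17 of 26 higher and 0 lower with a median of 1.13, but the operations were unlike: 2.28 for GB-IL and 0.311 for RYGB, and 21 of the 26 had an unadjusted p under 0.05 between them. Only 3 of the 26 had an unadjusted p under 0.05 in both contrasts with DIO. The list had 12 higher and 0 lower without GB-IL 1 and 2, with a median of 0.752. Lcn2, an iron-scavenger binder made in inflammation, was 33.3, 9.2, 56, 17.3 and 57.9 CPM in DIO, 3182, 4465, 3300 and 16.6 in GB-IL and 341, 71.1, 44.4, 17.2 and 318 in RYGB livers. Hpx, or hemopexin, was 5185, 2596, 5062, 3405 and 3276 CPM in DIO, 23040, 38220, 26100 and 3660 in GB-IL and 10050, 6582, 6187, 4394 and 13170 in RYGB livers. For both, GB-IL 4 lay in the DIO range and RYGB 1, 2 and 5 stood above it (4.25 ± 1.07 and 1.80 ± 0.45 log2). By operation, Lcn2 was 6.30 ± 1.23 for GB-IL and 2.19 ± 1.01 for RYGB and Hpx 2.54 ± 0.52 and 1.05 ± 0.48. The serum amyloid genes Saa1 and Saa2 had opposite signs, at 4.96 and 6.12 for GB-IL and -0.81 and -1.31 for RYGB, and so were not shared.

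Counts near the background or on both sides were seen in lists above too. Examples were bile acid synthesis and transport (2 of 23 higher, 0 lower) and lipoprotein metabolism (2 of 21 higher, 2 lower). The counts of the remaining lists follow. They were 0 higher and 2 lower of 20 circadian clock genes (Hlf -0.79 ± 0.31 among them), 1 higher and 2 lower of 29 for urea cycle and amino acid catabolism (lower: Uroc1 -0.71 ± 0.29 and Gls2 -0.44 ± 0.17), and 4 higher and 3 lower of 21 for Nrf2 and oxidative defence. In the last list Hmox1, which breaks down heme, was 1.05 ± 0.38 together, but 1.76 ± 0.44 for GB-IL and 0.34 ± 0.42 for RYGB, where 3 of 5 livers lay below all DIO livers. Its difference was 0.75 without GB-IL 1 and 2, with an unadjusted p of 0.05 or more. Ephx1 (-1.04 ± 0.35) was lower, and without GB-IL 1 and 2 the list had 1 higher and 3 lower. For the lysosome 4 of 23 were higher and 1 lower, led by Cd63 (3.00 ± 0.83), with the proton pump subunit Atp6v0d2 (1.66 ± 0.41) and the macrophage protease gene Ctss (0.95 ± 0.24). Ctss was 1.81 ± 0.28 for GB-IL but 0.10 ± 0.26 for RYGB, with 2 RYGB livers above and 2 below all DIO livers. Cd63 was 4.25 ± 0.94 for GB-IL and 1.74 ± 0.84 for RYGB, and 1.75 together without GB-IL 1 and 2. Hmox1, Ctss and Cd63 each had an unadjusted p under 0.05 between the operations. For the cell cycle 1 of 20 was higher (Mcm6 0.85 ± 0.32) and 0 lower (4 and 0 without GB-IL 1 and 2), and of 25 interferon-stimulated genes 0 were higher and 0 lower, Bst2 having -0.51 ± 0.30.

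**Figure D4:**
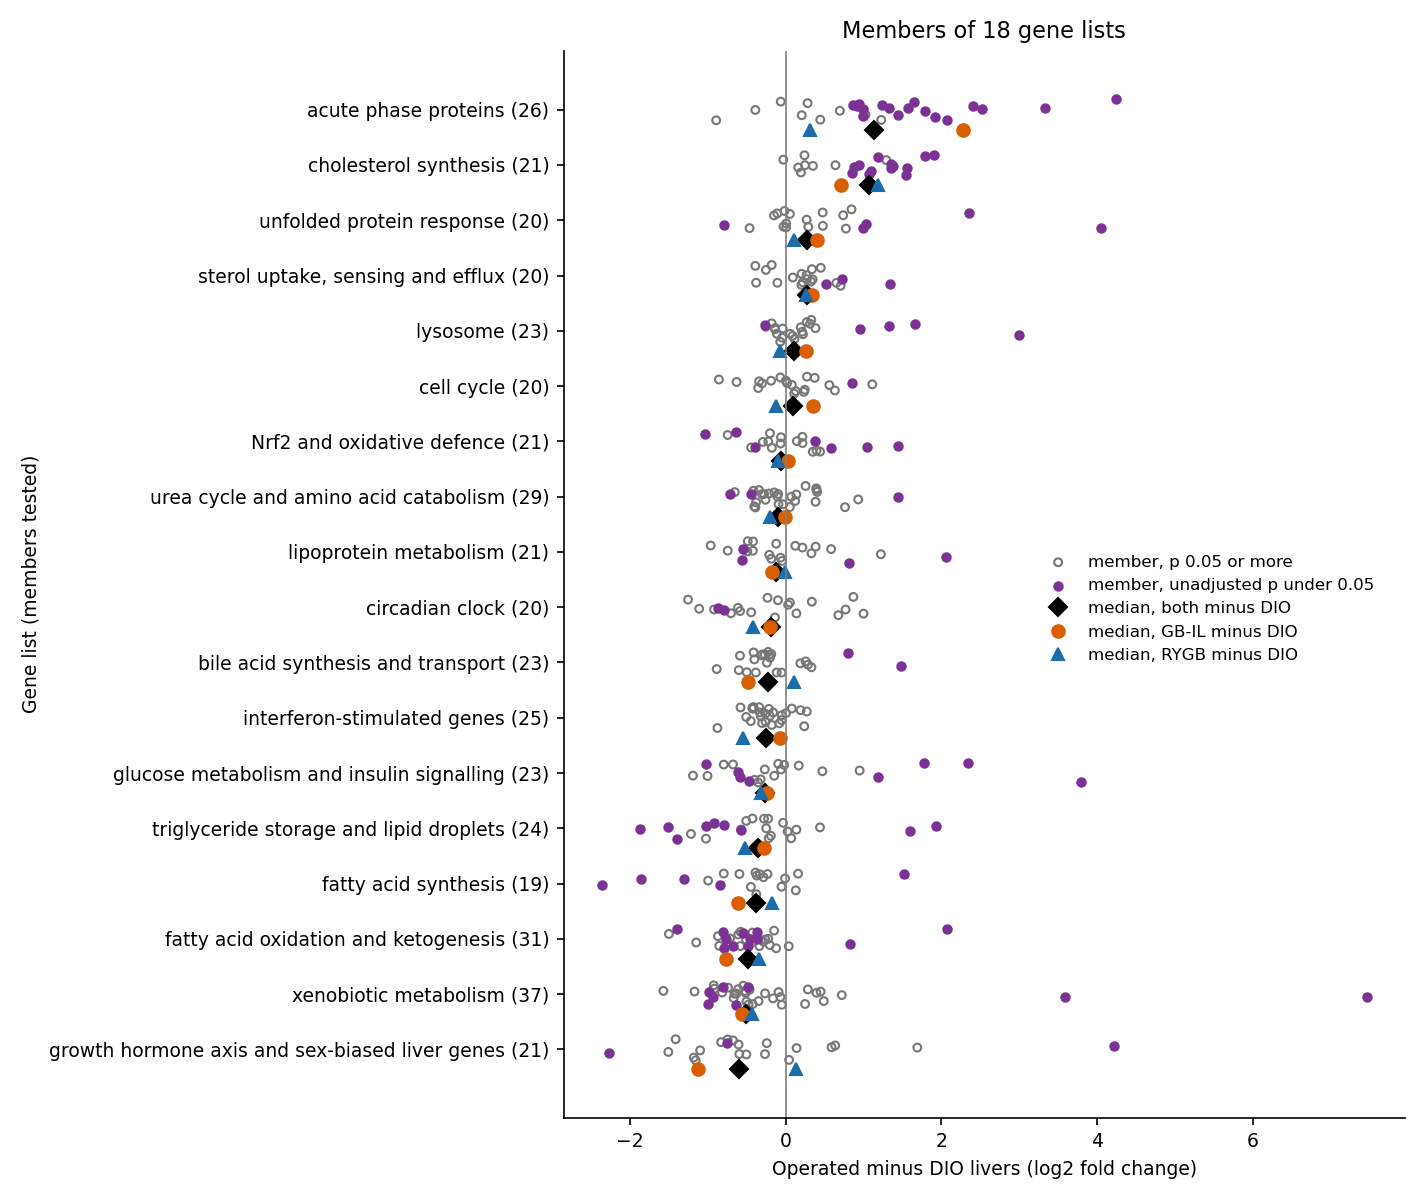
Log2 differences between operated and DIO livers (both operations, equal weight) of every tested member of 18 gene lists, filled where the unadjusted p is under 0.05, with the medians for both (diamonds), GB-IL (circles) and RYGB (triangles) under each row. Cholesterol synthesis lies to the right for both operations (0.715 and 1.19), acute phase proteins mainly for GB-IL (2.28 against 0.311), and fatty acid oxidation to the left (-0.771 and -0.343).

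Markers of other cell types were counted in the same way, and 0 of them passed the adjusted threshold. Of 25 macrophage and Kupffer cell markers 15 were higher and 0 lower (median 0.779), of 27 stellate cell and matrix markers 18 and 0 (median 0.953), of 9 neutrophil markers 9 and 0 (median 3.82), and of 10 cholangiocyte markers 6 and 1 (median 1.13). The medians by operation were 1.33 for GB-IL and 0.239 for RYGB in macrophage markers, 1.04 and 0.661 in stellate, 5.10 and 2.55 in neutrophil and 1.82 and 0.292 in cholangiocyte markers, of which 13, 7, 7 and 9 had an unadjusted p under 0.05 between the operations. Fewer had an unadjusted p under 0.05 in both contrasts with DIO: 3 of 25 macrophage, 8 of 27 stellate, 4 of 9 neutrophil and 0 of 10 cholangiocyte markers. For cholangiocytes without GB-IL 1 and 2, the count was 2 higher and 1 lower, the median 0.287 and the difference in summed CPM 6.08 instead of 17.6. The counts of higher markers without these livers were 19 for macrophages, 17 for stellate cells and 9 for neutrophils. Of 14 endothelial markers 2 were higher and 0 lower, of 13 hepatocyte markers 1 and 3, of 16 lymphocyte markers 0 and 0, and of 7 red cell markers 0 and 1. Summed per liver, macrophage markers were 692 to 1150 CPM in DIO, 1430 to 3490 CPM in GB-IL and 807 to 1630 CPM in RYGB livers. Those of stellate cells and matrix were 1530 to 2130 CPM in DIO, 1830 to 3560 CPM in GB-IL and 2090 to 4850 CPM in RYGB livers, and those of neutrophils 6.33 to 12.7 CPM in DIO, 7.65 to 475 CPM in GB-IL and 9.49 to 167 CPM in RYGB livers. Cholangiocyte markers were 29.2 to 42 CPM in DIO, 35.7 to 89 CPM in GB-IL and 32.7 to 50.1 CPM in RYGB livers, and hepatocyte markers 125000 to 139000 CPM in DIO, 89200 to 129000 CPM in GB-IL and 120000 to 166000 CPM in RYGB livers. GB-IL 3 held the highest macrophage and neutrophil sums and RYGB 5 the highest stellate sum. For neutrophils GB-IL 4 and RYGB 2, 3 and 4 lay within the DIO range, with RYGB 1 at 14.5 CPM and RYGB 5 at 167 CPM. Of the 13 neutrophil markers in the sum, 9 had been tested singly. No sum passed the exact permutation test over all 252252 assignments of livers to groups (two-sided, 12 lists, smallest adjusted p 0.307), and the unadjusted p for macrophages was 0.0442. Their part in the differences of single genes was not tested.

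Among the markers, Gpnmb, a gene of lipid-laden macrophages, was 0.314, 0.295, 0.661, 0.34 and 0.24 CPM in DIO, 210.3, 91.5, 16.5 and 0.775 in GB-IL and 0.82, 0.345, 1.3, 0.414 and 3.63 in RYGB livers. All GB-IL livers were above DIO, but 2 RYGB livers were not (7.73 ± 1.23 and 1.84 ± 1.14 log2). Lox, which cross-links collagen, was 0.419, 0, 0.0509, 0.0566 and 0.144 CPM in DIO, 5.25, 0.395, 1.02 and 1.03 in GB-IL and 0.383, 0.345, 0.387, 0.538 and 1.52 in RYGB livers (3.01 ± 0.81 log2), and the collagen gene Col1a1 had a difference of 1.33 ± 0.53. Col6a1, another collagen gene, was the only marker of the 12 lists among the 92 genes without overlap, at 8.85, 6, 8.55, 8.77 and 6.34 CPM in DIO, 22.6, 12.9, 17.6 and 10.7 in GB-IL and 12.7, 11.5, 9.54, 16.8 and 54.1 in RYGB livers. Tff3, a mucosal peptide, was 1.68, 0.197, 0.153, 1.53 and 0.721 CPM in DIO, 41.9, 70.9, 15.9 and 0.516 in GB-IL and 2.08, 30.2, 3.73, 15.5 and 11.7 in RYGB livers (4.57 ± 1.02 log2), with GB-IL 4 inside the DIO range. Of the 3 tested intestine and gallbladder markers it alone had an estimate above 0, and 2 were below 0 (list median -0.233). The summed CPM of that list, as operated minus DIO, was -38.1 (unadjusted p 0.202 in the permutation test).

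**Figure D5:**
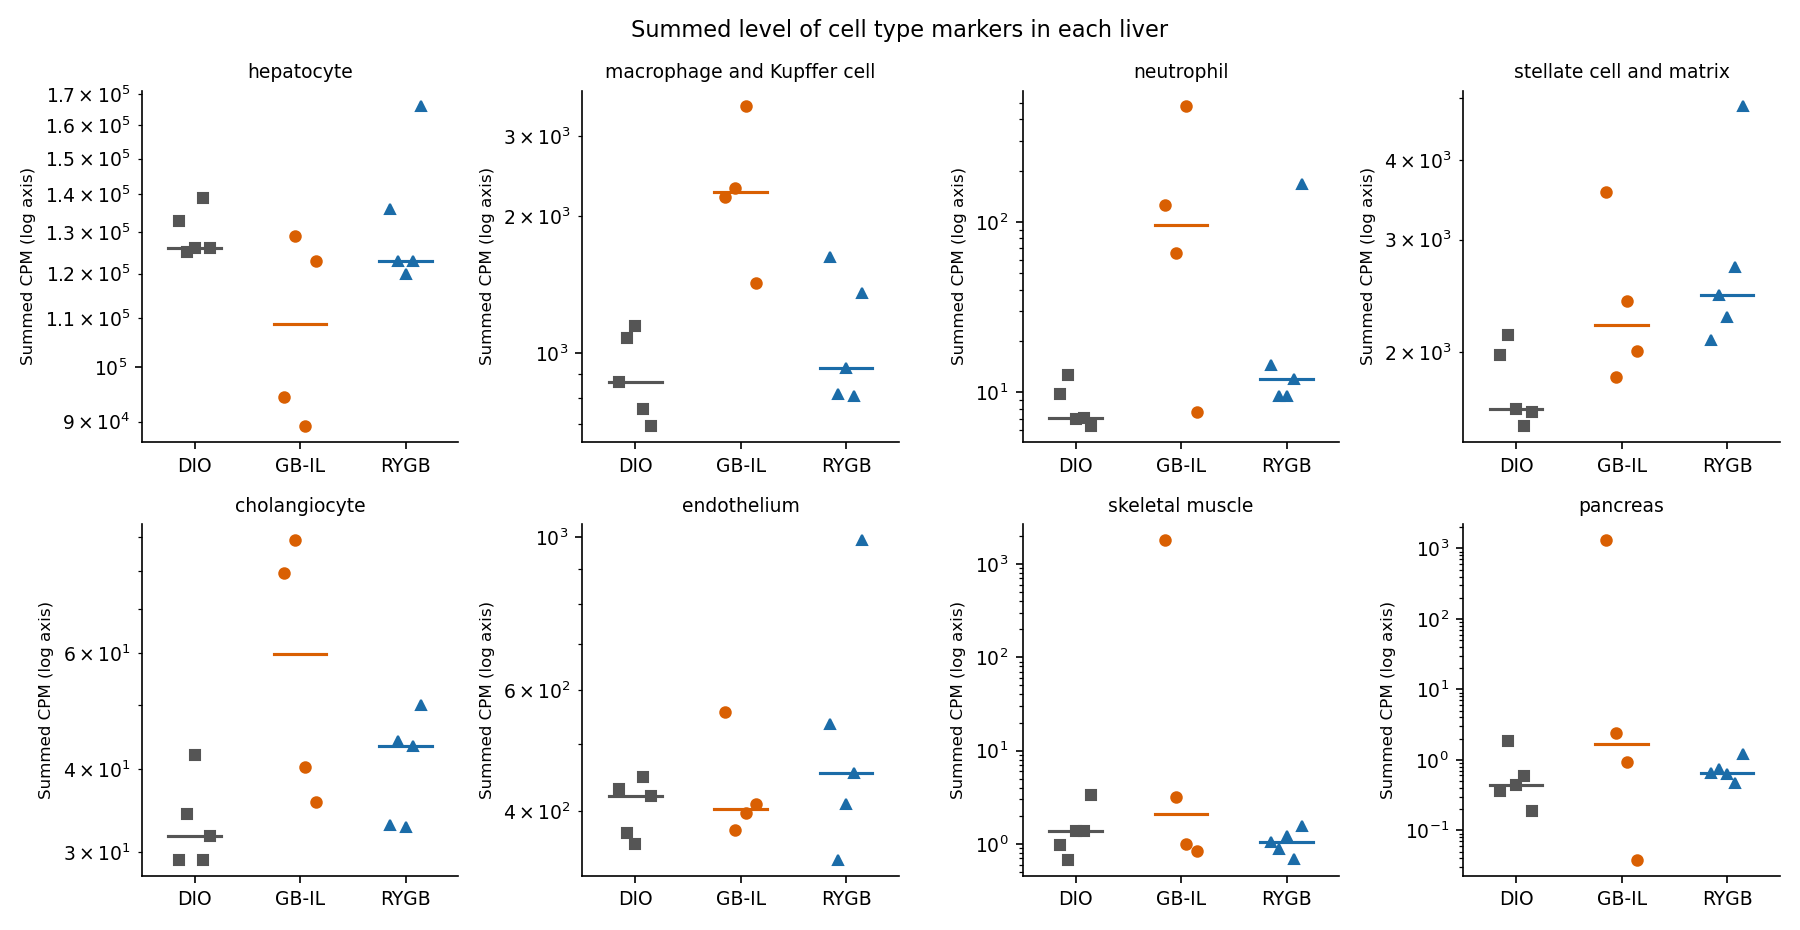
Summed CPM (without TMM factors, log axes with different ranges) of the markers of 8 tissues or cell types, with 1 point per liver and a line at each group's median. GB-IL 1 stands alone for skeletal muscle (1810 CPM) and pancreas (1320 CPM), and macrophage sums range from 692 to 1150 CPM in DIO, 1430 to 3490 in GB-IL and 807 to 1630 in RYGB.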

How the data were processed

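Liver RNA of 14 mice was sequenced, 4 after GB-IL, 5 after RYGB and 5 unoperated DIO mice, grouped by their labels. The deposited table holds whole-number read counts per gene, which the authors made with TopHat2 (build mm10) and HTSeq; their versions, the gene annotation and the use of strand were not given in the sources used here. Beside mm10, the submitters' notes list hg19, and the labels name a TruSeq stranded mRNA kit and a TruSeq stranded total RNA kit without saying which livers had which, while the study's methods describe an amplification kit. A kit can alter which RNAs are counted, and its part cannot be told apart here. The labels do not say how replicates were drawn beyond separate livers, so p-values measure the spread between these samples.

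Of 25212 genes, 24701 were placed by GENCODE M21, 577 had no count, and 14252 passed edgeR's filter by expression. Counts were fitted with edgeR 4.0.16 (R 4.3.3; TMM scaling, quasi-likelihood test) with 1 mean per group, and the average of GB-IL and RYGB was compared with DIO. Genes were called at a Benjamini-Hochberg adjusted p under 0.05. A difference in both operations used the larger of the 2 p-values with equal signs. SEs were derived from the log2 difference and its F statistic. DESeq2 1.42.0, limma 3.58.1 voom with quality weights, other scalings, filters, a replicate block and leaving out livers were alternatives, and GB-IL 1 and 2 together were left out as an alternative chosen after seeing the data. Total counts of 18223135 to 28656631 mean that a gene at 1 CPM rests on few reads per library.

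Named were the 10 genes in each direction of smallest p among those whose operated and DIO livers did not overlap with a mean of at least 1 CPM (pools of 47 and 36; since 0 genes passed the adjusted threshold, both were filled from genes that did not), and the 2 of smallest p in each of 18 role lists, 55 genes in all, some of which are not reported here. Others are stated to be chosen later or illustrate a list. The genes and lists were chosen with earlier results of these data known. Promoters and motifs came from RefSeq (GRCm38.p6), and similar transcripts were searched in GENCODE M21 at 90% identity over at least 25% of a transcript.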

Additional observations from a re-analysis of the deposited data

Results flagged for a closer look

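A liver far from the others of its group, by the gap between it and its neighbour relative to the group's range, was found in 19 of 192 groups of values checked. The rule is set for about 1 in 20 groups by chance. These groups share the same livers, so the count is not compared with that rate. RYGB 5 stood alone at the high end for Lpl (86.2 CPM), Scd2 (26.8 CPM), Fabp4 (150 CPM), Akr1b7 (4.74 CPM), Atf3 (9.0 CPM) and Mcm6 (17.2 CPM), and for the summed neutrophil (167 CPM) and stellate cell markers (4850 CPM). Also in RYGB, liver 1 was high for Hcn3 (15.1 CPM) and liver 4 low for Gm13251 (1.9 CPM). In GB-IL, liver 4 was high for 2610305D13Rik (0.922 CPM), Ephx1 (401 CPM) and the adipose marker sum (16.4 CPM), liver 3 for the lymphocyte marker sum (1510 CPM), and liver 1 for the sums of skeletal muscle (1810 CPM) and pancreas markers (1320 CPM). In DIO, liver 1 was high for Sqle (86.6 CPM), liver 5 for the skeletal muscle sum (3.35 CPM) and liver 2 for the pancreas sum (1.87 CPM).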

How the results depend on the processing

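Operated against DIO had 0 calls under every scaling, filter and robust fit tried, and 407 by DESeq2 and 840 by voom. Leaving out 1 liver at a time gave 0 to 1056, where only the fit without GB-IL 4 was above 0. For a difference in both operations DESeq2 gave 7, and leaving out 1 liver 0 to 5. GB-IL against RYGB gave 51 calls without the filter, 845 by DESeq2, 115 by voom and 0 to 3120 on leaving out 1 liver (without GB-IL 3, 24). Genes without overlap numbered 102 to 264 with 1 liver left out, most without DIO 1. Of 1314 alternative values for the 55 named genes, 1195 kept direction and side of the threshold, 118 newly passed it (41 by DESeq2, 37 by voom and 40 without GB-IL 4) and 1 reversed, Ifit3 at 0.02 by voom. Of 432 list medians, 427 moved by less than the spread among DIO livers; the others were fatty acid synthesis (-0.64) and fatty acid oxidation (-0.85) without GB-IL 4 and the growth hormone list (-1.01 with the replicate block, -0.15 with the operations pooled as 1 group, -0.18 without GB-IL 1 and 2). Marker sums, as operated minus DIO, moved for lymphocytes (-0.0597 on the log2 scale, -57.4 to 157 CPM with 1 liver left out) and intestine and gallbladder (0.192 on the log2 scale). Skeletal muscle was -0.164 to 302 CPM with 1 liver left out and -0.548 without GB-IL 1 and 2, adipose -1.97 to 1.07 and 1.91, and pancreas -0.0823 without GB-IL 1 and 2. The cause was not tested for any of these.

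Replicate numbers did not pair the livers: 13 same-numbered pairs had correlations of -0.381 to 0.381 (median -0.00723), 2 of them over 0.1, and 1 of 14 livers correlated best with its own number. With the number as a block, 0 genes were called, with 1942 at an unadjusted p under 0.05 (2164 without the block). Depth limits genes such as Kcnt2, with 3 to 10 counts in each DIO library.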
